A study of Homo sapiens with 4 samples.

Results

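The cytosolic and mitochondrial chaperones described here are 52 genes out of the 61806 in the count table. They were chosen by name from the heat shock and chaperonin families, with earlier results of these data known, so their shares below are descriptive. They comprise 2 heat shock transcription factors, 2 cytosolic HSP90 genes, 6 HSP70 genes, 3 HSP110 genes, 8 cytosolic HSP40 (J protein) genes, 3 BAG nucleotide exchange factors, 8 HSP90 co-chaperones, 5 small heat shock proteins, 8 subunits of the chaperonin TRiC, 2 prefoldin subunits and 5 mitochondrial chaperones. RNA was sequenced from U118-MG, an established human glioma line labelled wild type in both groups. The control group (NC, 2 libraries) had been infected with lentivirus carrying a negative control vector. The SPNS2 group (2 libraries) had been infected with lentivirus for overexpression of SPNS2, an exporter of sphingosine 1-phosphate, and both groups carried pCDH-CMV-MCS-EF1-puro, a vector with a CMV promoter for the insert and a puromycin resistance gene. The labels used here give neither the time after infection nor whether the cells are a clone, and they do not say that the libraries of a group are separate cultures. The p-values accordingly measure the spread between these samples only, and that spread may be technical.

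Chaperones bind unfolded or partly folded proteins and release them in cycles of ATP binding and hydrolysis. J proteins (HSP40) bring clients to HSP70, BAG and HSP110 proteins exchange its nucleotide, and STIP1 passes clients on to HSP90, which matures kinases and steroid receptors. TRiC is a ring-shaped chamber that folds actin and tubulin, small heat shock proteins hold unfolded proteins without ATP, and HSPD1 with HSPE1 forms the folding chamber of the mitochondrial matrix. In stressed cells the factor HSF1 binds heat shock elements, inverted repeats of GAA, in the promoters of many of these genes, and tumour cells of many kinds carry high levels of chaperones.

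The heat shock elements of the members are shown first because members, also within a class, differ in whether their promoter windows carry this shared sequence. RefSeq promoter windows on GRCh38.p14, each from 250 bases before a transcription start into the transcript, were found for 44 members (62 windows, since some genes have several starts, and windows of a gene can overlap). CCT6A, CRYAB, FKBP4, HSF1, HSPA14, HSPB2, PFDN2 and STUB1 had no window. The 2-unit element was searched as GAANNTTC or TTCNNGAA, each its own reverse complement, so that both strands were covered, and the 3-unit element as GAANNTTC followed by NNGAA or TTCNNGAA followed by NNTTC, each of which contains the shorter one. A 2-unit match was present in 23 of the 62 member windows (37.1%) and in 4722 of 34943 windows of all genes (13.5%). A 3-unit match was present in 7 member windows (11.3%) and in 171 of all windows (0.489%). A match is a description of the letters, not evidence that a factor was bound in these cells. In genes with several starts, positions are given from the start of the window that held the match. The windows below are written 5′ to 3′ on the strand of the gene, with the matched element in capitals and 3 bases on either side. They are HSP90AA1 at chr14:102087117-102087135 (minus strand, 88 bases before the start, in an annotated HSP90AA1 exon), HSP90AB1 at chr6:44247775-44247793 and chr6:44247828-44247846 (plus strand, 165 and 112 bases before the start, in no annotated exon), HSPA1A at chr6:31815434-31815447 and HSPA1B at chr6:31827630-31827643 (plus strand, 106 and 105 bases before the start, in no annotated exon), HSPA8 at chr11:123062351-123062369 and chr11:123062176-123062194 (minus strand, 230 and 55 bases before the start, both in annotated HSPA8 exons), HSPB1 at chr7:76302488-76302501 (plus strand, 182 bases before the start, in no annotated exon), DNAJA1 at chr9:33025072-33025085 (plus strand, 198 bases before the start, in an exon of APTX on the opposite strand), HSPD1 at chr2:197500065-197500088 (minus strand, 245 bases before the start, where exons of HSPD1 and HSPE1 are annotated on opposite strands) and CHORDC1 at chr11:90223084-90223112 (minus strand, 60 bases before the start, in an annotated CHORDC1 exon).
HSP90AA1: ttcTTCCGGAAGGTTCggg
HSP90AB1, far element: aggTTCTGGAAGATTCatg
HSP90AB1, near element: ttgTTCTGGAAGCTTCtgg
HSPA1A: ctgGAATATTCccg
HSPA1B: ctgGAATATTCccg
HSPA8, far element: cttGAAAGTTCCAGAAcgc
HSPA8, near element: cccTTCTGGAAGGTTCtaa
HSPB1: agaGAAGGTTCcag
DNAJA1: ccaGAAGATTCcac
HSPD1: attTTCTGGAAAGTTCTGGAAccg
CHORDC1: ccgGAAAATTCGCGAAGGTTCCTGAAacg
The window of CHORDC1 held the longest run of units among those printed, and the printed windows of HSPA1A and HSPA1B had the same letters.

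Each library held 31353373 to 34125159 counts. SPNS2 had 42 and 47 counts in NC and 7381 and 8224 counts in SPNS2, in the direction of the labels. Reads of the introduced and the cells' own gene were counted together. Of 9 glial and glioma markers, 5 (GFAP, S100B, SOX2, AQP4 and OLIG2) were at 0.238 CPM or less in every library, which is absent or nearly so. The other 4 did not move together: VIM rose from 4041 and 4744 to 6827 and 6222 CPM, TNC fell from 3753 and 3627 to 2122 and 2130 CPM, NES fell from 17.2 and 20.3 to 10.1 and 10.9 CPM, and CD44 was not called (edgeR adjusted p = 0.021, 0.0014, 0.024 and 0.117). The summed level of the 9, 8147 and 8726 CPM in NC and 8783 to 9325 CPM in SPNS2, combines these opposite changes. Of 4 leukocyte markers, 3 were under 1 CPM in every library, and their sum (111 to 130.1 CPM in NC, 66.5 to 76.7 CPM in SPNS2) was nearly all CD68, which fell (adjusted p = 0.0195). Of 3 neuronal markers, RBFOX3 was at 0 in every library, SYT1 fell from 16.2 and 15.7 to 2.37 and 2.76 CPM (adjusted p = 0.0027), and MAP2 rose from 0.25 and 0.238 to 1.07 and 2.13 CPM (adjusted p = 0.032). Their sum was 15.9 to 16.5 CPM in NC and 3.44 to 4.89 CPM in SPNS2. Of 3 endothelial markers (sums 4.24 to 5.20 and 6.43 to 6.83 CPM), PECAM1 rose from 2.50 and 3.57 to 6.04 and 6.71 CPM and VWF fell from 1.653 and 1.575 to 0.39 and 0.12 CPM (adjusted p = 0.046 for both), with CDH5 under 1 CPM. Of 4 epithelial markers (sums 2.85 to 3.12 and 0.51 to 0.552 CPM), KRT14 fell (adjusted p = 0.0214) and the other 3 were under 1 CPM in every library. MAP2 passed the low-count filter through its SPNS2 counts alone, and VWF and KRT14 through their NC counts alone. The calls of these genes thus add no support for a difference. The part of all the markers above in the results below was not tested.

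More of the chaperone genes rose than fell in the SPNS2 cells. HSP90AA1 had the largest rise, 2.37-fold, while CRYAB, HSPB2 and HSPA4L, of lower level, fell by more than any member rose. Levels are given as CPM, counts relative to library size scaled with TMM factors, and a member was called at an edgeR quasi-likelihood adjusted p under 0.05 over all 17853 genes tested. Of the 51 members that passed the low-count filter, 17 rose, 4 fell and 30 were not called. Across all genes tested 12.1% were called higher and 11.3% lower. Among the members the shares were 33.3% and 7.84%, and their median log2 fold change was 0.18, against -0.0085 for all genes. The groups did not overlap at 42 members, where 66% of all tested genes did not overlap. DNAJA4 was not tested, with no count in 3 libraries and 4 in SPNS2 replicate 2, and HSPB2 passed the filter through its NC counts alone, so that it had to differ. The members together took 13719 and 14027 CPM in NC and 18237 and 19313 CPM in SPNS2, a ratio of the means of 1.35.

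Many of these calls were lost in fits with a library left out. Such fits hold fewer libraries, so a lost call does not by itself show that it rested on the library removed. Of the 21 called members, 9 passed without each library in turn: HSP90AA1, HSP90AB1, HSPA4, HSPH1, HSPA4L, HSPB1, CRYAB, DNAJA1 and CCT8. The counts of members called higher and lower were 8 and 2 without NC replicate 1 and 8 and 2 without NC replicate 2. They were 12 and 3 without SPNS2 replicate 1 and 9 and 3 without SPNS2 replicate 2. Calls over all genes fell likewise from 4171 to between 1712 and 2144. Log2 fold changes also shifted along whole chromosome arms in these samples, with medians between -0.39 (11q) and 0.43 (5q). The part of the arm shifts in single genes was not tested, and values with the arm median removed are given for members whose call they change and for others named below.

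**Figure D1:**
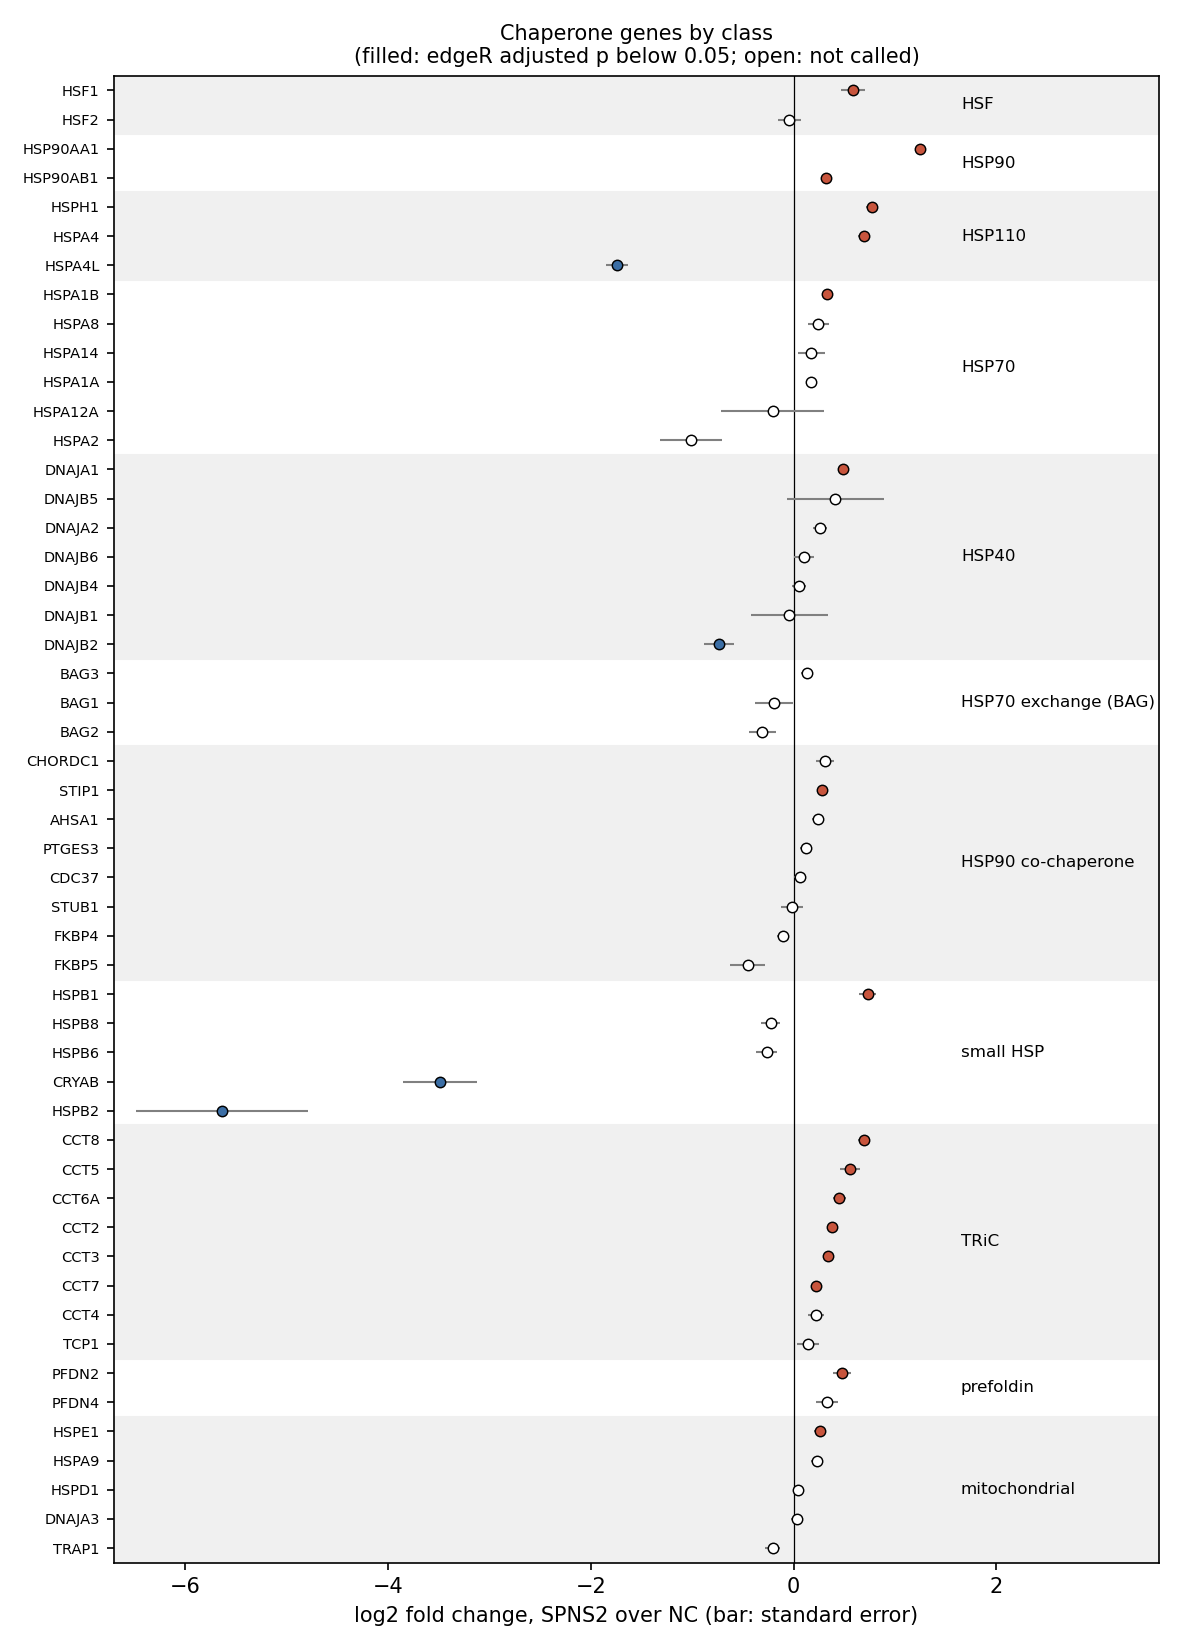
Log2 fold change of SPNS2 over NC (x axis) with its standard error for the 51 tested members, grouped by class, with filled points for members called at an adjusted p under 0.05. HSP90AA1 lies farthest right at 1.25, the TRiC subunits all lie to the right of 0, and CRYAB and HSPB2 lie farthest left; the fitted value of HSPB2 (-5.64) rests on 0 and 3 counts in the SPNS2 libraries.

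The heat shock factors stand first in the pathway. HSF1, the main transcriptional activator of the heat shock response, was at 45.6 and 54.1 CPM in NC and at 71.2 and 78.7 CPM in SPNS2. Both SPNS2 libraries lay above both NC libraries, and the log2 fold change was 0.59 (SE 0.12, edgeR adjusted p = 0.032). The call was lost without NC replicate 1 (0.47, adjusted p = 0.093), SPNS2 replicate 1 (0.67, adjusted p = 0.0702) or SPNS2 replicate 2 (0.52, adjusted p = 0.113). HSF2, a related factor active in development and in the stress response, was at 20.2 and 18.4 CPM in NC and 18.45 and 18.97 CPM in SPNS2. Its groups overlapped, and the log2 fold change was -0.04 (edgeR adjusted p = 0.823). RNA level does not show whether either factor was active.

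Among the classes, HSP90 had the highest ratio of summed CPM between SPNS2 and NC (1.73). HSP90AA1, the stress-inducible cytosolic HSP90 (ENSG00000080824, chromosome 14, 102080738 to 102139699), was at 1635 and 1681 CPM in NC and at 3814 and 4048 CPM in SPNS2. The libraries of a group lay close together and the groups were far apart. The log2 fold change was 1.25 (SE 0.045, edgeR adjusted p = 0.0011), and it ranged from 1.19 to 1.31 over the alternatives tried. HSP90AA1 was the 1 member called with a rise of at least 2-fold. HSP90AB1, the constitutive isoform (ENSG00000096384, chromosome 6, 44246166 to 44253888), was at 2227 and 2204 CPM in NC and at 2728 and 2781 CPM in SPNS2. It too rose without overlap, but by 0.31 on the log2 scale (SE 0.033, edgeR adjusted p = 0.0076). HSP90AA1 had 2 promoter windows and HSP90AB1 had 3, and only 1 window of each held any match. In that window the 3-unit heat shock element printed above had 1 match in HSP90AA1 and 2 in HSP90AB1.

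The balance between the isoforms moved with it. Per kilobase of annotated exon, HSP90AA1 stood at 0.417 and 0.433 times HSP90AB1 in NC and at 0.794 and 0.827 times in SPNS2. The ratio was 1.91-fold higher in SPNS2 (exact two-sided permutation p = 0.333, the smallest that 2 against 2 libraries allow). On the same scale of CPM per kilobase, HSP90AB1 ranked highest among the members in both groups, at 743 ± 5.43 in NC and 924 ± 12.8 in SPNS2 (SD, n = 2). HSP90AA1 stood at 316 ± 6.20 in NC, behind HSPA8, and at 749 ± 31.5 in SPNS2, ahead of it. These orders depend on annotated exon length, which stands in for transcript length. In CPM alone, HSPA8 had the highest mean in NC (2303, with HSP90AB1 at 2215). In SPNS2 the highest was HSP90AA1 (3931, with HSP90AB1 at 2754.5). The CPM ratio of HSP90AA1 to HSP90AB1 was 0.734 and 0.763 in NC and 1.40 and 1.46 in SPNS2. HSP90AA1 took 11.92% and 11.98% of the members' CPM in NC and 20.92% and 20.96% in SPNS2. Pseudogenes and read-through genes named for HSP90AA1 held at most 1.09% of its counts in any library. No stretch of 50 exon bases was shared between HSP90AA1 and HSP90AB1.

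**Figure D2:**
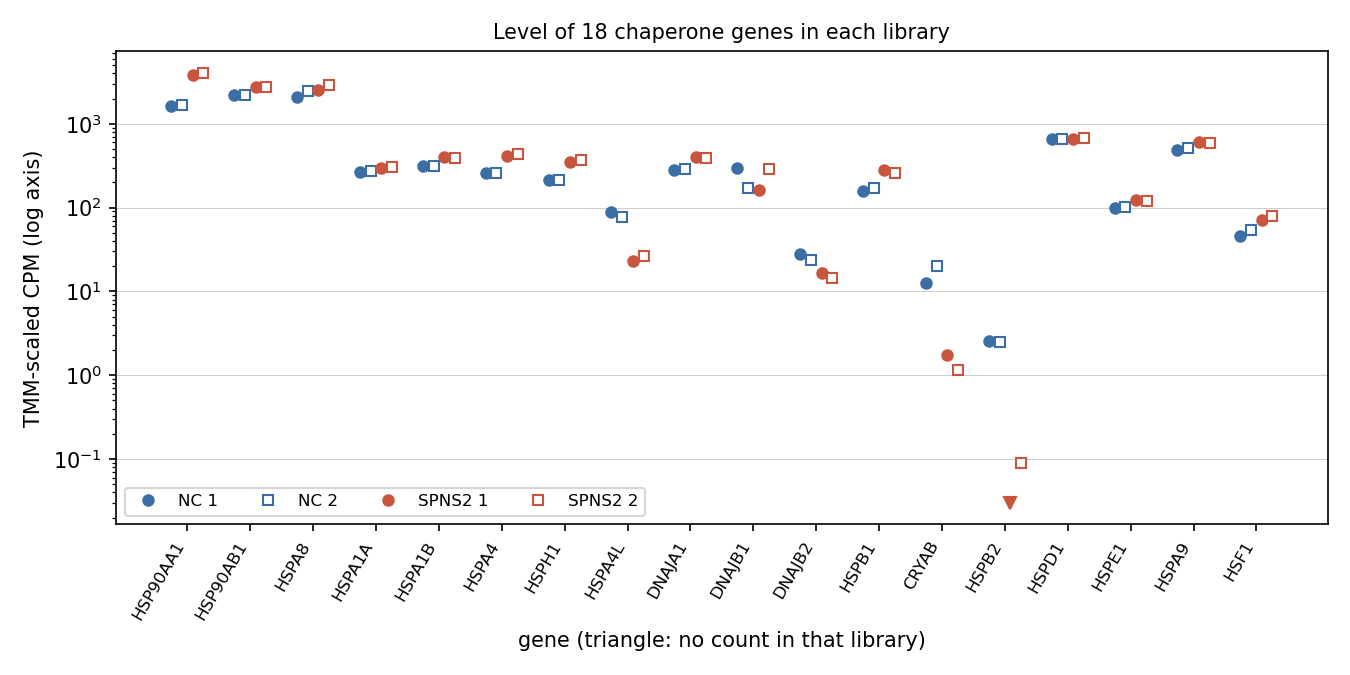
TMM-scaled CPM on a log axis for 18 chaperone genes, with 1 point per library (blue NC, red SPNS2; filled replicate 1, open replicate 2; the triangle marks a library with no count). HSP90AA1 lies between 3814 and 4048 CPM in SPNS2 against 1635 and 1681 CPM in NC, HSPA4L and CRYAB lie lower in SPNS2, and the replicates of DNAJB1 lie far apart within both groups.

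Of the 6 HSP70 genes, 1 was called (16.7% higher, against 12.1% over all genes tested). HSPA8, the constitutive cytosolic HSP70 (ENSG00000109971, chromosome 11, 123057489 to 123063230), was at 2113 and 2493 CPM in NC and at 2543 and 2914 CPM in SPNS2. The lower SPNS2 library lay just above the higher NC library, and the log2 fold change of 0.24 was not called (SE 0.11, edgeR adjusted p = 0.180). HSPA8 lies on 11q, the arm with the lowest median. With the arm medians removed its log2 fold change was 0.64 (edgeR adjusted p = 0.0257). HSPA1B, a stress-inducible HSP70, rose from 314 and 317 CPM in NC to 399 and 396 CPM in SPNS2, by 0.33 on the log2 scale (SE 0.047, edgeR adjusted p = 0.014). HSPA1B shares 36.5% of its exon bases with AL671762.1 on the same strand, so some reads could belong to either. Its call was lost without NC replicate 1 (adjusted p = 0.0734), NC replicate 2 (adjusted p = 0.0717) or SPNS2 replicate 2 (adjusted p = 0.0512). HSPA1A, its neighbour on chromosome 6, stood at 266 and 271 CPM in NC and 299 and 306 CPM in SPNS2 (log2 fold change 0.17, SE 0.051, edgeR adjusted p = 0.0817).

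HSPA1A and HSPA1B encode nearly the same protein, and 71.3% of the 50-base stretches of the exons of HSPA1A also occur in HSPA1B. Reads could therefore be divided between them, and their sum was 580.2 and 588 CPM in NC and 698 and 702 CPM in SPNS2. All of the SPNS2 values lay above the NC values, and fitted as 1 gene the sum rose by 0.26 on the log2 scale (SE 0.042, edgeR adjusted p = 0.020). Set against HSPA8, the sum was 0.275 and 0.236 in NC and 0.274 and 0.241 in SPNS2, ratios of CPM that overlapped between the groups. The remaining HSP70 members were scarce. HSPA2, known best from the testis, had 58 and 72 counts in NC and 28 and 35 in SPNS2 (log2 fold change -1.01, edgeR adjusted p = 0.0839). HSPA14, which works at the ribosome, was at 17.1 and 17.95 CPM in NC and 18.3 and 21.3 CPM in SPNS2. HSPA12A, a distant HSP70 relative, stood at 4.26 and 12.05 CPM in the SPNS2 libraries, on either side of its NC values of 9.14 and 9.72 CPM, and neither gene was called.

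The HSP110 genes, relatives of HSP70 that act as its nucleotide exchange factors, split in direction. HSPH1, the stress-inducible member, was at 211 and 213 CPM in NC and at 353 and 371 CPM in SPNS2 (log2 fold change 0.77, SE 0.055, edgeR adjusted p = 0.0033). HSPA4, the constitutive member, was at 259 and 263 CPM in NC and at 409 and 436 CPM in SPNS2 (log2 fold change 0.69, SE 0.056, edgeR adjusted p = 0.0043). HSPA4L, a further member that is abundant in testis, was at 87.8 and 77.7 CPM in NC and at 23.3 and 26.2 CPM in SPNS2. HSPH1 and HSPA4 thus lay higher in both SPNS2 libraries and HSPA4L lower in both. The log2 fold change of HSPA4L was -1.74 (SE 0.11, edgeR adjusted p = 0.0027), a 3.34-fold fall. HSPA4 lies on 5q, the arm with the highest median, and with the arm medians removed its value was 0.26 (edgeR adjusted p = 0.0433). HSPA4L lies on 4q (median -0.32), and its value with the arm medians removed was -1.42. Summed CPM of the 3 genes was 558 and 553 in NC and 785 and 833 in SPNS2.

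The J proteins, which select clients for HSP70, included 1 gene that rose and 1 that fell. Each was 14.3% of the tested J proteins, against 12.1% higher and 11.3% lower over all genes tested. DNAJA1, an abundant partner of HSPA8, was at 279 and 288 CPM in NC and at 399 and 394 CPM in SPNS2, without overlap (log2 fold change 0.48, SE 0.050, edgeR adjusted p = 0.0071). DNAJB2, a J protein with ubiquitin-binding motifs that is enriched in neurons, was at 27.8 and 23.7 CPM in NC and at 16.6 and 14.3 CPM in SPNS2. Its log2 fold change was -0.74 (SE 0.15, edgeR adjusted p = 0.033), but the call was lost without any single library (adjusted p from 0.0711 to 0.123) and with the arm medians removed (-0.59, adjusted p = 0.0613). DNAJB1, the main stress-inducible J protein, differed widely between replicates. It was at 295 and 169 CPM in NC and at 163 and 287.8 CPM in SPNS2. The replicates thus differed 1.74-fold within NC and 1.76-fold within SPNS2, the groups overlapped, and no difference between the groups was detectable (log2 fold change -0.04, SE 0.38, edgeR adjusted p = 0.95). The sign for DNAJB1 depended on which library was dropped. Dropping NC replicate 1 or SPNS2 replicate 1 gave positive log2 fold changes of 0.41 and 0.33. Dropping NC replicate 2 or SPNS2 replicate 2 gave negative ones, -0.39 and -0.50. None of these was called. DNAJB5 spread likewise, at 14.1 and 11.5 CPM in NC and 9.52 and 24.5 CPM in SPNS2. DNAJA2, DNAJB4 and DNAJB6 had log2 fold changes of 0.26, 0.05 and 0.10 and were not called, and DNAJB4 changed sign with library totals in place of TMM factors.

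None of the 3 BAG genes was called, where 23.4% of all genes tested were called in either direction. BAG3, which links HSP70 to small heat shock proteins and autophagy, was at 86.4 and 83.4 CPM in NC and at 93.2 and 92.7 CPM in SPNS2 (log2 fold change 0.13, edgeR adjusted p = 0.202). It lies on 10q (median -0.24) and was called with the arm medians removed (0.37, adjusted p = 0.0248). BAG1 and BAG2 had log2 fold changes of -0.20 and -0.31, with edgeR adjusted p of 0.501 and 0.172.

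Of the 8 HSP90 co-chaperones, STIP1 alone was called (12.5% higher, near the 12.1% over all genes tested). STIP1, the adaptor between HSP70 and HSP90, was at 363 and 355 CPM in NC and at 432 and 439 CPM in SPNS2 (log2 fold change 0.28, SE 0.047, edgeR adjusted p = 0.022). The SPNS2 libraries lay above the NC libraries, but the call was lost without any single library (adjusted p from 0.0576 to 0.106). With the arm medians removed the value of STIP1, on 11q, was 0.67 (adjusted p = 0.0035). AHSA1, the activator of the HSP90 ATPase, had a log2 fold change of 0.24 (edgeR adjusted p = 0.0581). CHORDC1, an HSP90-binding protein whose promoter held 3 overlapping 3-unit matches, had 0.31 (edgeR adjusted p = 0.0736), and 0.71 (adjusted p = 0.0132) with the median of 11q removed. PTGES3, which stabilises the closed form of HSP90, CDC37, the kinase adaptor, and STUB1, a ubiquitin ligase for chaperone clients, had 0.12, 0.06 and -0.01. With the arm medians removed PTGES3 had 0.24 (adjusted p = 0.0591). FKBP4 and FKBP5 are immunophilins of steroid receptor complexes. FKBP5, also a glucocorticoid-induced gene, was at 9.42 and 11.2 CPM in NC and 7.11 and 7.91 CPM in SPNS2 (log2 fold change -0.45, SE 0.17, edgeR adjusted p = 0.133), and FKBP4 had -0.11 (edgeR adjusted p = 0.268). The co-chaperones together took 1191 and 1198 CPM in NC and 1313 and 1338 CPM in SPNS2 (ratio 1.11). The 2 HSP90 genes together took 3862 and 3885 CPM in NC and 6542 and 6829.8 CPM in SPNS2.

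The small heat shock proteins held the largest falls. HSPB1 (HSP27), an actin-associated small heat shock protein, was at 156 and 170.1 CPM in NC and at 285 and 256 CPM in SPNS2. It rose without overlap by 0.73 on the log2 scale (SE 0.084, edgeR adjusted p = 0.0094), and per kilobase of exon it went from the ninth place among the members to the fourth. CRYAB, alpha B-crystallin (ENSG00000109846, chromosome 11, 111908565 to 111923722), was at 12.5 and 20 CPM in NC and at 1.75 and 1.14 CPM in SPNS2. Its groups were far apart although the libraries within a group differed 1.60-fold and 1.54-fold. The log2 fold change was -3.49 (SE 0.37, edgeR adjusted p = 0.0075), an 11.2-fold fall. HSPB2 (ENSG00000170276, chromosome 11, 111912242 to 111914093), a small heat shock protein of muscle, had 81 and 83 counts in NC and 0 and 3 in SPNS2 (edgeR adjusted p = 0.017). The ratio of its NC to its SPNS2 counts, scaled for depth, was 53.4 with an exact 95% counting interval from 17.9 to 262, which covers counting error only. HSPB2 passed the low-count filter through its NC counts alone, so that its call and this interval add no support for a difference. The call of HSPB2 was lost without NC replicate 1 (adjusted p = 0.0659) or NC replicate 2 (adjusted p = 0.066).

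HSPB2 lies within the span of CRYAB on the opposite strand, and 59.7% of its exon bases are shared with CRYAB or with the read-through gene HSPB2-C11orf52. Without a stated strand setting, part of the reads of HSPB2 and CRYAB cannot be told apart. Both genes lie on 11q, and with the arm medians removed CRYAB was at -3.10 (edgeR adjusted p = 0.0109). HSPB2, which had to differ, was also called there (edgeR adjusted p = 0.0229). In bulk RNA, fewer cells with a transcript and less of it per cell cannot be told apart. HSPB6, another small heat shock protein of muscle, was at 66.6 and 72.7 CPM in NC and 61.9 and 53.9 CPM in SPNS2, with a log2 fold change of -0.27 (edgeR adjusted p = 0.139). HSPB8, the partner of BAG3, was at 34.1 and 32.8 CPM in NC and 28.0 and 29.1 CPM in SPNS2, with -0.23 (edgeR adjusted p = 0.155), and -0.11 with the median of 12q removed. Both lay lower in each SPNS2 library than in either NC library, and neither was called.

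Of the 8 TRiC subunits 6 rose (75%, against 12.1% over all genes tested), and all 8 had a positive log2 fold change, with a median of 0.36. CCT8 was at 244 and 260.4 CPM in NC and at 404 and 413 CPM in SPNS2 (log2 fold change 0.70, SE 0.058, edgeR adjusted p = 0.0045). CCT5 was at 545 and 539 CPM in NC and at 724 and 872 CPM in SPNS2 (0.56, SE 0.099, edgeR adjusted p = 0.025). It shares 30.1% of its exon bases with AC012640.4 on the opposite strand, and no strand setting is stated, so some reads could belong to either. CCT6A was at 308 and 288 CPM in NC and at 397 and 418 CPM in SPNS2 (0.45, SE 0.063, adjusted p = 0.014). In each of these genes the SPNS2 libraries lay clear of the NC libraries. CCT2 rose from 230.4 and 233 to 304 and 299 CPM (0.38, SE 0.050, adjusted p = 0.012), and CCT3 from 306 and 299 to 381 and 385 CPM (0.34, SE 0.049, adjusted p = 0.015). CCT7 rose least, by 0.22 (adjusted p = 0.038). The subunits below the threshold were CCT4 (0.22, adjusted p = 0.132), whose groups did not overlap, and TCP1 (0.14, adjusted p = 0.405), whose groups did. The SPNS2 libraries of TCP1 were at 293 and 356 CPM, and without SPNS2 replicate 2 its value was -0.00081.

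The TRiC calls other than that of CCT8 were lost in some fits with a library left out, where calls over all genes fell too. In those fits the log2 fold change ran from 0.222 to 0.239 for CCT7 and from 0.42 to 0.70 for CCT5. CCT7 was lost without any of the 4 libraries (adjusted p from 0.0988 to 0.147) and, with all 4 kept, by DESeq2 (0.0644), with upper-quartile factors (0.0648), with library totals (0.0728) and without the low-count filter (0.059). CCT2 and CCT5 were lost without NC replicate 1 (0.0654 and 0.0931) or NC replicate 2 (0.0637 and 0.0995). CCT3 was lost without NC replicate 1 (0.0651), NC replicate 2 (0.0792) or SPNS2 replicate 2 (0.0565), and CCT6A without NC replicate 2 (0.0643) or SPNS2 replicate 2 (0.0524). With the arm medians removed, CCT5 on 5p (0.25, adjusted p = 0.155) and CCT3 on 1q (0.20, adjusted p = 0.0543) were not called, CCT4 on 2p was called (0.39, adjusted p = 0.0419), CCT7 on 2p had 0.40, TCP1 on 6q had 0.30 (adjusted p = 0.134), and every subunit stayed positive.

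The subunits occur once each in a TRiC ring, so their levels per length bear comparison. Per kilobase of annotated exon the 8 subunits ran from 53.3 (CCT2) to 113 (CCT4) in NC replicate 1 and from 53.8 to 103 in NC replicate 2. In SPNS2 they ran from 59.4 (TCP1) to 133 (CCT4) in replicate 1 and from 69.3 (CCT2) to 149 (CCT5) in replicate 2. The highest subunit was thus 1.92 to 2.23 times the lowest in every library. Exon length stands in for transcript length here, which shifts the order of genes but not a gene's change between groups. Summed CPM of the subunits was 2535 and 2475 in NC and 3204 and 3405 in SPNS2, a ratio of 1.32. No window of CCT3, CCT5, CCT7 or CCT8 held a heat shock element of either form, whereas 1 window each of CCT2, CCT4 and TCP1 held a 2-unit match.

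**Figure D3:**
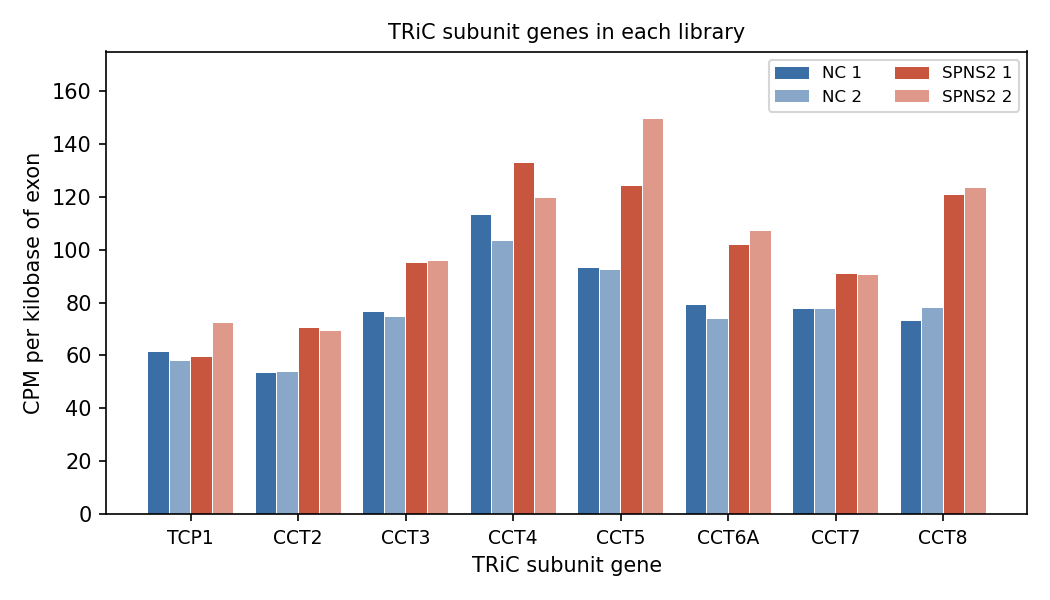
CPM per kilobase of annotated exon (y axis, from 0) for the 8 TRiC subunit genes, with 1 bar per library (blue NC, red SPNS2). Each called subunit is higher in both SPNS2 libraries than in both NC libraries, CCT8 by the largest margin, and TCP1 overlaps between the groups.

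Prefoldin hands actin and tubulin to TRiC. PFDN2, present in every prefoldin hexamer, was at 38.5 and 41.8 CPM in NC and at 54.2 and 57.2 CPM in SPNS2, without overlap (log2 fold change 0.47, SE 0.088, edgeR adjusted p = 0.027). The call of PFDN2 was lost without any single library (adjusted p from 0.0699 to 0.109) and with the arm medians removed (0.34, adjusted p = 0.0658). PFDN4 had a log2 fold change of 0.33 and was not called (edgeR adjusted p = 0.108).

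Of the 5 mitochondrial members, 1 was called (20% higher, against 12.1% over all genes tested). HSPD1 (HSP60; ENSG00000144381, chromosome 2, 197486581 to 197516737), the chamber of the mitochondrial chaperonin, was at 659.6 and 656 CPM in NC and at 667 and 687 CPM in SPNS2. The groups lay next to each other without overlap, and the log2 fold change was 0.04 (SE 0.044, edgeR adjusted p = 0.540). It changed sign with upper-quartile factors (-0.0042) or library totals (-0.014), and with the median of 2q removed it was 0.19 (adjusted p = 0.0524). HSPE1 (HSP10), the lid of that chamber, was at 99.3 and 103 CPM in NC and at 122 and 119.6 CPM in SPNS2 (log2 fold change 0.26, SE 0.060, edgeR adjusted p = 0.045). This was the call nearest to the threshold among the members, and it was lost without any single library (adjusted p from 0.127 to 0.182). With every library kept it was also lost by DESeq2 (0.0671), with upper-quartile factors (0.0734), with library totals (0.0816) and without the low-count filter (0.0778). With the arm medians removed its value was 0.40 (adjusted p = 0.0187). HSPE1 lies inside the span of HSPD1 and shares 23.9% of its exon bases with other genes, HSPD1 among them, so some reads could belong to either. HSPD1 was 6.64 and 6.39 times as high as HSPE1 in CPM in NC and 5.47 and 5.75 times in SPNS2 (exact two-sided permutation p = 0.333, the smallest possible).

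HSPA9 (mortalin), the HSP70 of the matrix, was at 485 and 522 CPM in NC and at 599 and 583 CPM in SPNS2. The groups did not overlap, and the adjusted p fell just short of the threshold (log2 fold change 0.23, SE 0.057, edgeR adjusted p = 0.0515). It was called by limma-voom (adjusted p = 0.0412), by the robust fit (0.0405) and with RLE factors (0.0479). HSPA9 lies on 5q, and with the arm medians removed its value turned to -0.20 (adjusted p = 0.0807). TRAP1, the HSP90 of mitochondria, was at 95.6 and 104 CPM in NC and at 86.6 and 86.8 CPM in SPNS2 (log2 fold change -0.21, SE 0.073, edgeR adjusted p = 0.115). TRAP1 shares 29.3% of its exon bases with genes on the opposite strand, so some reads could belong to either. DNAJA3, the J protein of the matrix, overlapped between the groups at 113 and 107 CPM in NC and 112 and 113 CPM in SPNS2, and its log2 fold change of 0.03 changed sign with upper-quartile factors, with library totals and without NC replicate 2. The mitochondrial members together took 1452 and 1492 CPM in NC and 1588 and 1590.3 CPM in SPNS2, a ratio of 1.08.

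Other genes of the folding machinery gave a frame for the members. Over all genes tested, 12.1% were called higher and 11.3% lower. Of 103 further folding genes, listed apart from the chaperones of the endoplasmic reticulum, 93 were tested. Of these, 19 rose and 4 fell (20.4% and 4.30%, median log2 fold change 0.089). Among 27 other HSP70 and HSP90 partners, 10 rose and 2 fell (37.0% and 7.41%, median 0.16). They included ST13, the HSP70-binding protein HIP, which rose from 301 and 303 to 482 and 489.5 CPM (log2 fold change 0.69, edgeR adjusted p = 0.0030), and TOMM34, a cytosolic partner of both chaperones in mitochondrial import, at 0.59. FNIP1, which binds HSP90 and folliculin, and NUDC, an HSP90-associated protein, had 0.43 and 0.34. FNIP1 lies on 5q, where the median of tested genes was also 0.43. The 2 partners that fell were TTC4 (-0.39) and FNIP2 (-0.33), the latter on 4q with a median of -0.32. The part of the arm shifts in these values was not tested.

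Of 27 other J protein genes, 21 were tested, 5 rose and 0 fell at this threshold. The share that rose was 23.8%, against 12.1% over all genes tested. DNAJC6, the auxilin of clathrin uncoating, rose from 5.33 and 5.56 to 17.3 and 18.9 CPM (log2 fold change 1.73, edgeR adjusted p = 0.0042). DNAJC7, which binds both HSP70 and HSP90, had 0.74, DNAJC18 1.08 and DNAJC21, a factor of ribosome maturation, 0.56. Among 6 tested of 10 other HSP70 and small heat shock genes, HSPB7 of heart muscle fell by 1.46 on the log2 scale, from 39.3 and 45.1 to 17.4 and 13.2 CPM (edgeR adjusted p = 0.010). HSPA6, an HSP70 that is nearly silent without stress in most cells, stayed near the lower limit of the table at 0.998 and 1.01 CPM in NC and 1.59 and 1.71 CPM in SPNS2 and was not called (adjusted p = 0.165). Of 19 other chaperonin and prefoldin genes, 3 rose and 1 fell (15.8% and 5.26%, against 12.1% and 11.3% over all genes tested). The risen genes were TBCD, a tubulin cofactor (0.48), and the prefoldin-type subunits UXT (0.63) and PFDN6 (0.53). The fallen gene was BBS10, a chaperonin-like protein of cilia (-0.45).

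Counts by compartment stand beside shares of 12.1% called higher and 11.3% lower over all genes tested. Of the 46 tested cytosolic members 16 rose and 4 fell (median 0.20). Of the 5 mitochondrial members 1 rose (20%) and 0 fell (median 0.042), too few genes to set apart from those shares. Of 20 other mitochondrial folding and protease genes, 1 rose (5%; PHB1, a prohibitin of the inner membrane, 0.48) and 0 fell (median -0.076). Of 23 chaperones of the endoplasmic reticulum, 1 rose (4.35%, MANF) and 12 fell (52.2%, median -0.31). Relatives of the members in that compartment stood against them within a family. HSP90B1, the HSP90 of the endoplasmic reticulum, fell from 1991 and 1890.4 to 1242 and 1214 CPM, so that HSP90AA1 stood at 0.821 and 0.889 times HSP90B1 in NC and at 3.07 and 3.33 times in SPNS2. HSPA5 (BiP), the HSP70 of that compartment, fell by 0.55 on the log2 scale, and HSPA8 stood at 1.10 and 1.28 times HSPA5 in NC and at 1.85 and 2.31 times in SPNS2. These are ratios of CPM, and the exact two-sided permutation p of both was 0.333, the smallest possible. No test of the difference between the lists was made.

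**Figure D4:**
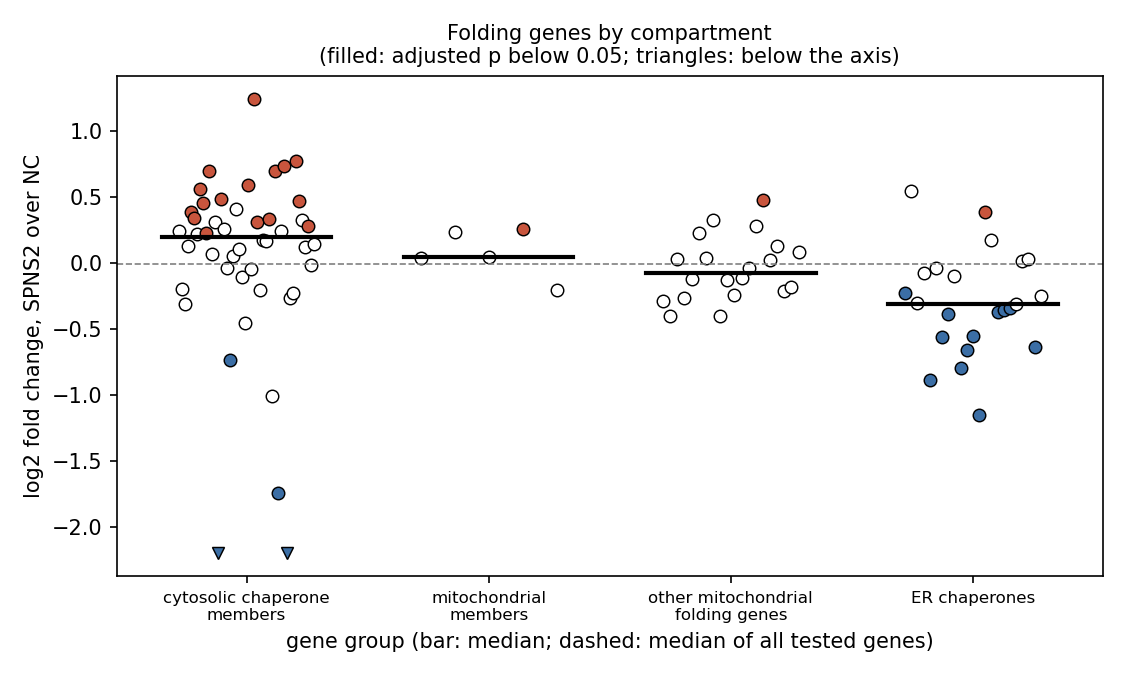
Log2 fold change of SPNS2 over NC (y axis) for tested folding genes in 4 groups, with bars at each group's median, a dashed line at the median of all tested genes and filled points for genes called at an adjusted p under 0.05. The cytosolic members centre at 0.20 and the chaperones of the endoplasmic reticulum at -0.31, and the triangles mark CRYAB and HSPB2 below the axis.

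The heat shock elements were counted again by call. A 2-unit match was present in 7 of 19 windows of members that rose (36.8%), in 14 of 36 windows of members not called (38.9%) and in 1 of 4 windows of members that fell (25%). The 3-unit form was present in 3 of the 19 windows of risen members and in 4 of the 36 windows of uncalled members. Genes with the 3-unit form were HSP90AA1, HSP90AB1 and DNAJA1 (there just after the start), which rose, and HSPA8, HSPD1, CHORDC1 and DNAJB6, which were not called. Among these 7 genes the log2 fold changes ran from 0.04 for HSPD1 to 1.25 for HSP90AA1. HSPH1 and HSPA4, which rose by 0.77 and 0.69, had no match of either form in their window, which says only that these letters are absent from that stretch.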

How the data were processed

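RNA sequencing was done on 4 libraries of U118-MG cells, 2 NC and 2 SPNS2, grouped by the sample titles. The authors deposited raw counts per gene, whole numbers without normalization. Per the submitters' processing notes, the build was hg38, and featureCounts 0.3, HISAT2 2.2.1 and Trim Galore 0.6.9 are listed without stated roles. No annotation release, strand setting or rule for reads with several matches is stated in the labels, so overlapping genes and near-identical copies are uncertain. BAG2 (44.2% of exon bases), STUB1 (42.4%) and HSPB6 (38.2%) also overlap genes on the opposite strand. The table held 61806 genes and 1 row of annotation text, which was left out.

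Genes passing filterByExpr (minimum count 10, minimum total 15; 17853 genes) were scaled by TMM and compared by edgeR 4.0.16 (R 4.3.3) with its two-sided quasi-likelihood F-test, with group as sole term. Genes were called under 0.05 after Benjamini-Hochberg adjustment across the 17853 genes. The standard error is the log2 fold change divided by the square root of F. The script was tested on simulated data. Levels are TMM-scaled CPM, also divided by the summed exon length in kilobases from GENCODE 29 (GRCh38, the assembly of hg38). Total counts were 31513400 and 32992150 (NC) and 31353373 and 34125159 (SPNS2). Spearman correlations across tested genes were 0.983 and 0.984 within the groups. Promoter windows came from RefSeq (GRCh38.p14). Arms were divided at approximate centromeres.

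The members and lists were chosen with earlier results of these data known, so no test over a list was made. The rule for named genes was every called member, 14 set members whatever their p with their values by library, called members of at least 5 CPM with values by library (at most 12 in each direction), and up to 4 called genes with the smallest p of each other list. Alternatives were DESeq2 1.42.0, limma-voom (limma 3.58.1), a robust fit, other factors (upper-quartile, RLE or library totals alone), no filter, at least 1 CPM on average, the replicate block, leaving out each library, glmTreat against a fold of 1.2, arm medians removed, and copies added up.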

Additional observations from a re-analysis of the deposited data

How the results depend on the processing

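The number of members called higher (17) was 15 to 19, and of members called lower (4) was 3 or 4, under DESeq2, limma-voom, the robust fit, upper-quartile factors, RLE factors, library totals, both other filters, arm medians removed and copies added up. Against a fold of 1.2 (glmTreat) 6 were higher and 3 lower, of 2394 genes called against 4171. With a library left out, 8 to 12 were higher and 2 or 3 lower, of 1712 to 2144 genes called. Deviations from the group means correlated at -0.078 between libraries of the same replicate number. With 2 libraries per group this value cannot decide whether the replicates were paired. With the replicate block 10 members were higher and 2 lower, of 1976 genes called. It lost HSPA1B (adjusted p = 0.0531), HSPB2 (0.0559), DNAJB2 (0.0511), HSPE1 (0.113), STIP1 (0.0694), CCT3 (0.0541), CCT5 (0.0518), CCT6A (0.0507), CCT7 (0.101) and PFDN2 (0.0603) and gained HSPA8 (0.0409). The cause of these changes was not tested. Of the 21 called members 0 changed sign in any alternative, and 9 were called in each alternative other than glmTreat. Of the 30 uncalled, 23 were called in none. Uncalled members changed sign as follows. Upper-quartile factors gave -0.0042 for HSPD1 and -0.011 for DNAJA3, and library totals gave -0.014, -0.021 and, for DNAJB4, -0.0039. With arm medians removed, HSF2 was 0.11, HSPA12A 0.028, HSPA14 -0.018, HSPA9 -0.20 and FKBP4 0.066. With a library left out, the lowest and highest values were -0.11 and 0.027 for HSF2 (highest without NC replicate 1), -1.14 and 0.37 for HSPA12A, -0.50 and 0.41 for DNAJB1 (above 0 without NC replicate 1, and 0.33 without SPNS2 replicate 1), -0.42 and 0.95 for DNAJB5, -0.019 and 0.24 for DNAJB6, -0.00080 and 0.069 for DNAJA3, -0.41 and 0.049 for BAG1, -0.13 and 0.11 for STUB1 (0.061 without SPNS2 replicate 1), and -0.00081 and 0.29 for TCP1. Upper-quartile factors and library totals moved the median of all genes from -0.0085 to -0.055 and -0.064. Depth limits HSPA2, HSPB2 and DNAJA4, with under 100 counts in every library.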
